A study of Mus musculus with 3 samples.

Results

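Among the RNAs that differed between mouse spleen and a pooled reference were transcripts of the pancreas, and 10 non-enzyme genes of that organ are described here: 6 acinar genes (Reg2, Reg3a, Gp2, Serpini2, Erp27 and Ptf1a) and 4 islet genes (Ins2, Gcg, Scg5 and Pcsk1n). They were chosen by name, as the array features whose single gene symbol in the probe annotation is one of these 10 of 7984 symbols. This gave 18 of 16273 probes, 11 for acinar and 7 for islet genes. All 18 were measured on all 3 arrays, and none held the exact 0 that is read here as no measurement and that fills 24.2% to 26.8% of each array.

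The study compared 1 group of 3 two-colour arrays. On each array cRNA from purchased spleen total RNA was labelled with Cyanine-5 and cRNA from UMRR, a purchased Universal Mouse Reference RNA made by pooling RNA of mouse cell lines, with Cyanine-3, both after a single round of amplification. The labels give 1 product for each RNA and no strain, age, sex or number of animals, so a p-value here reflects the spread among the arrays alone, which may be technical. The labels give the same dye to the same RNA each time, so dye and RNA source cannot be told apart. The values are signed log ratios, and neither the base of the logarithm nor the channel in the numerator is stated. Positive was read as the spleen side, which is likely but not settled. The basis is the usual order of red over green together with lineage genes that are no members. Positive past the test were 4 of 4 measured B cell genes (2.72 to 3.91) and 4 of 4 erythroid genes (1.72 to 3.22). Of 5 T cell genes 4 were also positive past the test (1.73 to 3.88), but Cd3d was negative past it at -0.85. The 5 of 5 matrix genes listed for fibroblasts were negative (-3.24 to -0.94). The -0.94 is Col3a1, averaged from probe 18528 (-1.70), which passed limma, and probe 16982 (-0.18), which did not. Col14a1, a collagen gene outside that list, lay on the opposite side at 4.66 by probe 2567. With the base not stated, each fold is printed in base 2 and in natural logs. Intensities were not used here, so how far a signal stood above background is unknown. Precision is limited by having 3 arrays.

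The exocrine pancreas consists mostly of acinar cells, which pack digestive enzymes into zymogen granules and release them into the duct. The endocrine islets, a small part of the organ, store peptide hormones in dense-core granules, where prohormones are cut by convertases. Ptf1a is the cell-specific basic helix-loop-helix subunit of PTF1, the complex that drives acinar genes, and PTF1 binds an E-box together with a second short element. The tail of the pancreas lies against the hilum of the spleen.

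Promoter windows of the 4 acinar genes with the highest ratios, and of Scg5, the islet gene with the highest, are printed because these members stood high together. RefSeq's promoter table (GRCm38.p6) held 8 of the 10 members, without Ins2 and Erp27. Each window runs 5′ to 3′ on the gene's strand from 250 bases before to 50 bases after the start, and capitals mark CACCTG, an E-box of the kind PTF1 binds, and the TATA element TATAAA, in either orientation. The windows are chr6:78404905-78405204 (+) for Reg2, chr7:119459223-119459522 (-) for Gp2, chr3:75270029-75270328 (-) for Serpini2, chr6:78380459-78380758 (+) for Reg3a and chr2:113829042-113829341 (-) for Scg5.
Reg2: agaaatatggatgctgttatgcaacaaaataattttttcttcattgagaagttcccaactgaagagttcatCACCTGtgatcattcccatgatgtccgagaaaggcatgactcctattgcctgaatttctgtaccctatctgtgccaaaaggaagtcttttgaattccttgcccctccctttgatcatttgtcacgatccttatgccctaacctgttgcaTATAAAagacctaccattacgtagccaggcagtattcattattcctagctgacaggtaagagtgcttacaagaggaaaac
Gp2: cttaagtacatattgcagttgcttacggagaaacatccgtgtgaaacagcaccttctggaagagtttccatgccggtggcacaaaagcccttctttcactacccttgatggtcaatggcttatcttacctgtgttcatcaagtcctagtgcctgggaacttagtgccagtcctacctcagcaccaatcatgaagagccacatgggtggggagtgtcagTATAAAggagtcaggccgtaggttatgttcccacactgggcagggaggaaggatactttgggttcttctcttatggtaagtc
Serpini2: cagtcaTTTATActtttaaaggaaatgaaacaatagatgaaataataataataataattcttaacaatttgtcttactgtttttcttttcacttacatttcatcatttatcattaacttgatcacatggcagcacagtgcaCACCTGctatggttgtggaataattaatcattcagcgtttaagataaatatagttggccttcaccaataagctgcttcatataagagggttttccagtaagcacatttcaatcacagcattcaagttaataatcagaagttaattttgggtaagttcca
Reg3a: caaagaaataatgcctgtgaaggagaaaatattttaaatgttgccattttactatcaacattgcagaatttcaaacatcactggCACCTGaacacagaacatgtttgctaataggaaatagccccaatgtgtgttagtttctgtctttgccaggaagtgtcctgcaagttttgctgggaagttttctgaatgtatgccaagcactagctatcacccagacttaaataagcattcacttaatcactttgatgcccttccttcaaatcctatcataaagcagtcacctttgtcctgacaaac
Scg5: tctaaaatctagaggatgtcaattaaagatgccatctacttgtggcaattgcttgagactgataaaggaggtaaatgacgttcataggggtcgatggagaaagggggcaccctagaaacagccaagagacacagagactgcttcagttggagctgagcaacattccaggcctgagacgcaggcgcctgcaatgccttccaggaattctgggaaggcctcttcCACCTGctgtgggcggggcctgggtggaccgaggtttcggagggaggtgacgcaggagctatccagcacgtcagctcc

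CACCTG was searched on both strands and found in 4 of the 8 member windows, against 20.2% of all 32851 promoter windows of that length. Its first base lay 179 bases before the start in Reg2, 166 in Reg3a, 109 in Serpini2 and 28 in Scg5, each time on the gene's strand. TATAAA was in 4 of the 8 windows and in 13.6% of all windows, 30 bases before the start in Reg2, 32 in Gp2 and 24 in Gcg, with a further match on the opposite strand in Gcg and the match of Serpini2, also on the opposite strand, 244 bases before the start. TTTCCC, the other short element of PTF1 sites, was in 1 of the 8 windows, that of Pcsk1n, and in 25.2% of all windows. No matches of the 3 motifs overlapped. These matches describe the letters in the windows only.

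The acinar genes had large positive ratios except Erp27 and Ptf1a, while the islet genes ranged from clearly positive to negative. With limma, 15 of the 18 probes were positive at an adjusted p under 0.05, 1 was negative and 2 did not pass, where 32.3% of all 11086 tested probes were positive and 36% negative. The 15 comprise 10 of 11 acinar and 5 of 7 islet probes, 4 of the latter all from Scg5. Passing the test was common, with 68.3% of all probes called in either direction. With the probes of each gene averaged, 7 of 10 genes were positive (33.2% of all 6077 genes) and 1 negative (37.1% of all genes, with 70.3% called either way). Against a 1.5-fold ratio limma called 14 of the 18 probes positive and 0 negative, whether the values were read as log2 (10.3% of all probes positive and 8.72% negative) or as natural logs (14.2% and 13.9%), the 1 negative call of the test against 0 being small. In bulk RNA such as this, fewer cells of a type and less RNA per cell cannot be told apart.

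**Figure D1:**
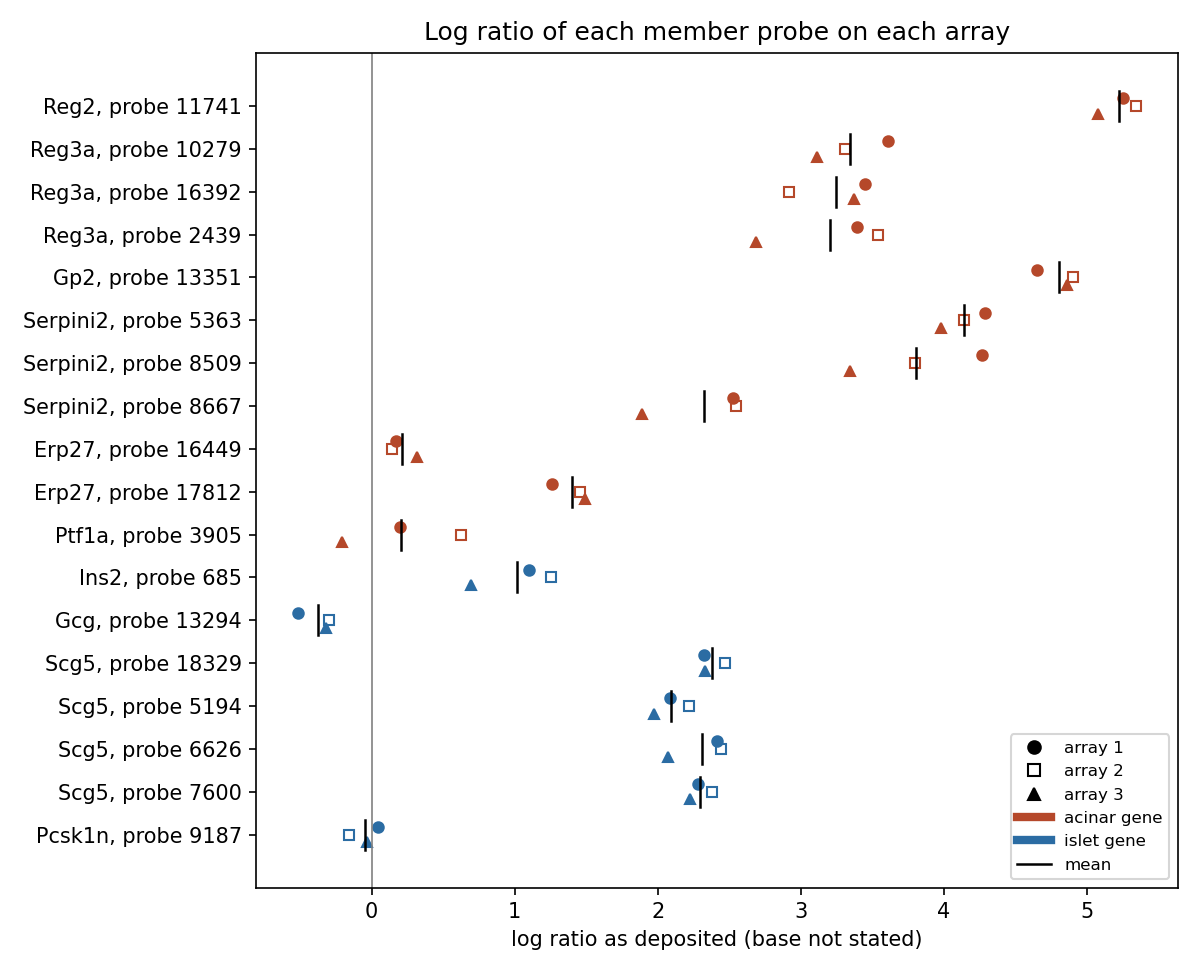
Log ratio (x axis, base not stated) of each of the 18 probes (y axis) on array 1 (circle), array 2 (open square) and array 3 (triangle), with acinar genes in red, islet genes in blue and a black bar at the mean. Reg2, Gp2, Reg3a and Serpini2 lie at 1.89 or above on every array, Scg5 lies near 2, and Gcg lies below 0.

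The Reg genes encode small secreted C-type lectins, and both measured here as members were strongly positive. Reg2, a regenerating protein made by acinar cells and also linked to islets, had log ratios of 5.25, 5.34 and 5.08 on arrays 1 to 3. Its mean of 5.22 ± 0.13 (SD, n = 3; limma adjusted p = 6.69e-08) is a 37.3-fold ratio in base 2 or 185-fold in natural logs, and ranked 5 from the top of the 11086 probes. Reg3a, a member of the Reg3 branch of the family, was read by 3 probes. Probe 10279 gave 3.61, 3.31 and 3.12 on arrays 1 to 3, with a mean of 3.35 ± 0.25 (SD, n = 3; limma adjusted p = 6.03e-07). Probe 16392 gave 3.45, 2.92 and 3.37, and probe 2439 gave 3.39, 3.54 and 2.69. The means of the 3 Reg3a probes differed by at most 0.14, less than the spread of any of them over the arrays, and every Reg3a value lay below every Reg2 value.

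The table held 3 further genes of the family. Reg3d was at 2.60 ± 0.18 (SD, n = 3) and Reg3g at 2.60 ± 0.15 (SD, n = 3), both positive in the limma gene fit (adjusted p = 3.95e-07 and 2.95e-07). Reg4, a family member of the gut, was negative at -0.25 ± 0.12 (SD, n = 3; adjusted p = 0.0165, limma). In RefSeq's order of protein-coding genes Reg3b, Reg3d, Reg3a, Reg2, Reg1 and Reg3g follow one another on chromosome 6, and Reg4 is not among them. Reg genes share sequence, so part of the signal of a probe may come from a relative, and single members are uncertain.

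Zymogen granule and secretory proteins came next. Gp2, the glycoprotein anchored in the zymogen granule membrane, gave 4.65, 4.90 and 4.86 on arrays 1 to 3. Its mean was 4.80 ± 0.13 (SD, n = 3; limma adjusted p = 7.22e-08), 27.9-fold in base 2 or 122-fold in natural logs, and ranked 17 from the top. Its values on the 3 arrays did not overlap those of Reg2.

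Serpini2, a serine protease inhibitor of the exocrine pancreas, was read by 3 probes that differed in size. Probe 5363 gave 4.29, 4.14 and 3.98 on arrays 1 to 3 (mean 4.14 ± 0.16, SD, n = 3). Probe 8509 gave 4.27, 3.80 and 3.34 (mean 3.80 ± 0.46, SD, n = 3). Probe 8667 gave 2.53, 2.55 and 1.89 (mean 2.32 ± 0.38, SD, n = 3), below both others on each array. All 3 passed limma, with adjusted p between 1.33e-07 and 1.02e-05, so the direction was shared while the means spanned 1.82. The average of the probes, 3.42, therefore depends on which probes are averaged.

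Erp27, a protein disulfide isomerase homologue of the endoplasmic reticulum without a catalytic site of its own, was positive past the test by both of its probes, which differed in size by 1.19. Probe 17812 gave 1.26, 1.46 and 1.49 on arrays 1 to 3 (mean 1.40 ± 0.13, SD, n = 3; limma adjusted p = 7.21e-06). Probe 16449 gave 0.17, 0.15 and 0.32 (mean 0.21 ± 0.092, SD, n = 3; limma adjusted p = 0.0341). The call of probe 16449 ended without array 1 (0.23, adjusted p = 0.0938) and without array 3 (0.16, adjusted p = 0.233), and its sign turned when a running median over 5 neighbouring probe numbers was subtracted (-0.53, adjusted p = 0.00245), the adjusted p lying between 0.00245 and 1 over all alternatives.

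Ptf1a, the acinar transcription factor, did not pass the test. Its probe gave 0.20, 0.62 and -0.21 on arrays 1 to 3, with a mean of 0.20 ± 0.42 (SD, n = 3; limma adjusted p = 0.2496), so its sign differed between arrays. Without array 3 the mean was 0.41 and passed (adjusted p = 0.00204), without array 2 it was -0.0053 (adjusted p = 0.968), and with a running median over 5, 10 or 20 probe numbers subtracted it was 0.69, 0.75 and 0.43 (adjusted p = 0.00947, 0.00259 and 0.0353). The fit without array 3 gave limma adjusted p of another order, 1.48e-43 for Reg2 against 2.68e-05 without array 1. Its call of Ptf1a is therefore not comparable with the other calls. Over all alternatives the adjusted p lay between 0.00204, from that fit, and 1.

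**Figure D2:**
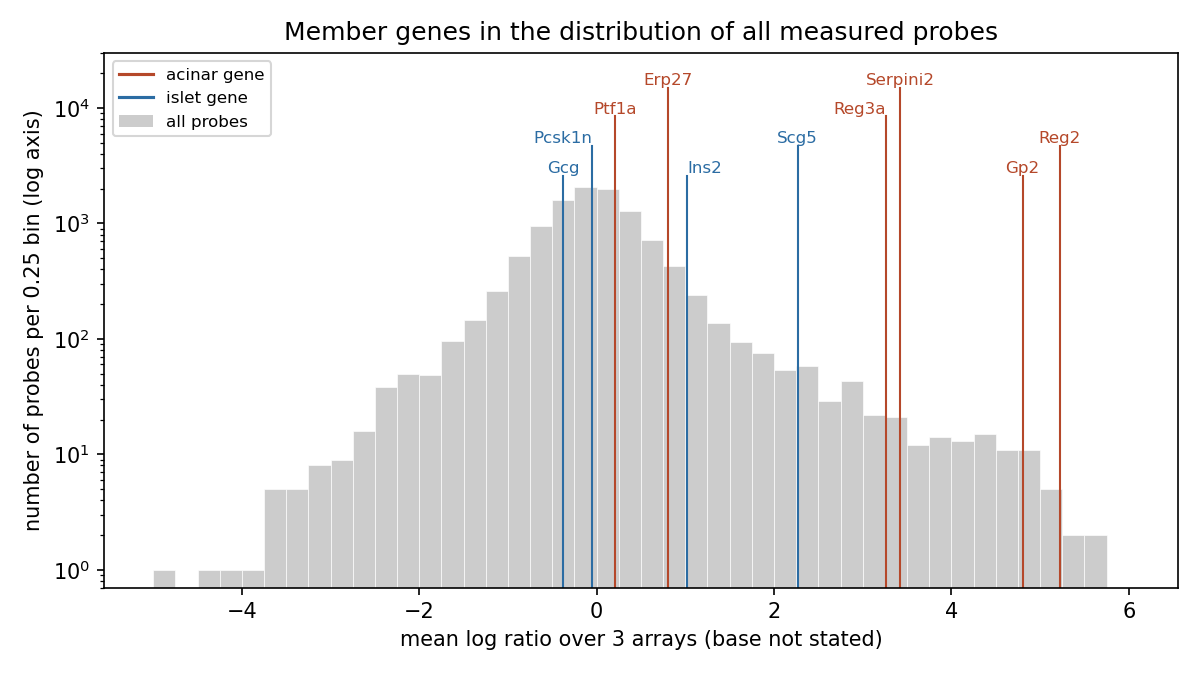
Number of probes (y axis, log scale) by mean log ratio over 3 arrays (x axis, base not stated, bins of 0.25) for all 11086 measured probes, with lines at the 10 member genes, each the average of its probes, acinar in red and islet in blue. Reg2 and Gp2 stand at the upper end, Reg3a, Serpini2 and Scg5 in the upper tail, and Ptf1a, Pcsk1n and Gcg in the bulk around 0.

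The hormone genes of the islets were far lower than the 4 high acinar genes, and they parted in direction. Ins2, an insulin gene of beta cells, gave 1.10, 1.25 and 0.70 on arrays 1 to 3 (mean 1.02 ± 0.29, SD, n = 3; limma adjusted p = 0.000215), which is 2.02-fold in base 2 or 2.77-fold in natural logs. Its call ended without moderation of the variance (adjusted p = 0.0572, the highest of its alternatives). Gcg, which encodes proglucagon of alpha cells, gave -0.51, -0.30 and -0.32 and was the 1 member called negative (mean -0.38 ± 0.12, SD, n = 3; limma adjusted p = 0.00353). Its ratio of 1.30-fold in base 2 or 1.46-fold in natural logs did not pass limma's test against a 1.5-fold ratio in either base (adjusted p of 1 after rounding, the highest of its alternatives, with 0.00105 the lowest), nor the test without moderation (adjusted p = 0.0640). The values of Ins2 and Gcg did not overlap on any array.

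The granule genes of the islets also parted. Scg5 encodes 7B2, the chaperone of the prohormone convertase Pcsk2, and its 4 probes gave the highest ratios among the islet genes. Probe 18329 gave 2.33, 2.47 and 2.33 on arrays 1 to 3, probe 6626 gave 2.42, 2.44 and 2.07, probe 7600 gave 2.28, 2.38 and 2.22, and probe 5194 gave 2.09, 2.22 and 1.97. The probe means lay between 2.09 and 2.38 and the gene mean was 2.27 ± 0.11 (SD, n = 3; limma adjusted p = 3.42e-07), 4.81-fold in base 2 or 9.65-fold in natural logs. The 4 probes agree to within 0.29, unlike those of Serpini2 and Erp27.

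Pcsk1n encodes proSAAS, an inhibitor of the convertase Pcsk1 that sits in the same kind of granule. Its probe gave 0.04, -0.15 and -0.03 on arrays 1 to 3 (mean -0.05 ± 0.099, SD, n = 3; limma adjusted p = 0.575), with values on both sides of 0 and below every Scg5 value. With a running median over 5, 10 or 20 probe numbers subtracted it was -0.24, -0.20 and -0.14 and passed (adjusted p = 0.0245, 0.0218 and 0.0459, within 0.0218 to 1 over all alternatives).

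Ordered by gene mean, the log ratios fell from Reg2 (5.22) through Gp2 (4.80), Serpini2 (3.42), Reg3a (3.27), Scg5 (2.27), Ins2 (1.02), Erp27 (0.81), Ptf1a (0.20) and Pcsk1n (-0.05) to Gcg (-0.38). Neighbours whose values over the arrays overlapped were Serpini2 and Reg3a, Ins2 and Erp27, and Ptf1a and Pcsk1n. The other neighbours did not overlap. Both statements hold for probe averages only. Erp27 probe 16449 (0.15 to 0.32) lay within the range of Ptf1a (-0.21 to 0.62). Serpini2 probe 8667 (1.89 to 2.55) lay below Reg3a and spanned the range of Scg5 (2.15 to 2.38). The order is one of ratios between the RNAs, not of transcript levels.

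The contrast of acinar with islet genes is a description, since 3 arrays cannot give an exact sign test a two-sided p below 0.25 and genes are not replicates. The median log ratio of the 6 acinar genes was 3.59, 3.38 and 3.06 on arrays 1 to 3, and that of the 4 islet genes 0.57, 0.55 and 0.33. The difference of these medians was 3.02, 2.83 and 2.73, with a mean of 2.86 ± 0.15 (SD, n = 3). The medians of the gene means, 3.34 and 0.48, stand beside -0.03 for all genes. The groups overlapped on every array: acinar genes reached down to 0.20, 0.62 and -0.21, and islet genes up to 2.28, 2.38 and 2.15. Of the 24 pairs of an acinar and an islet gene, 19 had the acinar gene higher on all 3 arrays, and the other 5 were Erp27 against Ins2 and Scg5, and Ptf1a against Ins2, Scg5 and Pcsk1n.

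Digestive enzyme genes, which acinar cells make alongside these proteins, reached the same range. Positive ratios passed for 12 of 13 measured enzyme genes, whose median was 3.87 against 3.34 for the acinar members. The lipase relative Pnliprp2 was at 4.66, the ribonuclease Rnase1 at 4.64, chymotrypsinogen Ctrb1 at 4.54 and the chymotrypsin-like Ctrl at 4.38, gene means that lie below those of Reg2 and Gp2. Single enzyme probes reached as high as Gp2 (4.80), with 4.81 for Rnase1 probe 11699 and 4.81 for Ctrb1 probe 8725, and on array 1 Pnliprp2 (5.29) lay above both Reg2 (5.25) and Gp2 (4.65). The enzyme gene Try4 had 2 probes measured on 2 arrays each and was not tested. Probe 13309 gave 4.83 and 4.97 on arrays 1 and 3, and probe 7160 gave 5.02 and 4.82 on arrays 2 and 3. These values were near or above those of Gp2 and below those of Reg2. The bile salt lipase Cel was at -0.14 ± 0.24 (SD, n = 3) and did not pass (limma adjusted p = 0.227), so a low ratio in an acinar gene was not limited to Erp27 and Ptf1a.

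Other acinar genes went both ways. Of 9 measured, 4 were positive (Reg3d, Reg3g, Tmed6 and Spink1) and 4 negative (Fkbp11, Gata6, Nupr1 and Reg4). Gatm, at 0.02, did not pass and was the median. Spink1 was positive through probe 14885 (0.66), while its probe 14853 (0.03) did not pass limma. For Reg4, probes 11737 (-0.33) and 15795 (-0.39) passed and probe 10154 (-0.02) did not. Tmed6, a secretory pathway cargo receptor relative, was at 1.76, and Fkbp11, an endoplasmic reticulum peptidyl-prolyl isomerase, at -1.29. The acinar transcription factor Bhlha15 and the zymogen granule protein Cuzd1 were listed at 0 on all arrays. Several genes of this list, such as Gata6, Nupr1 and Fkbp11, are also active in many other cell types.

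The genes listed for folding and export in the endoplasmic reticulum, set beside Erp27, stayed within 0.6 of 0. Fkbp11, counted with the acinar genes and not on this list, lay outside that range at -1.29. Among the 11 measured genes of the list, with a median of -0.06, 3 passed as positive and 4 as negative. The highest was the co-chaperone Dnajb11 at 0.59, followed by the transcription factor Xbp1 at 0.44, and the lowest was the disulfide isomerase Pdia6 at -0.34. Erp29, another disulfide isomerase relative, was at 0.27, between the 2 Erp27 probes.

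Few further islet genes were measured. Of 3 hormones and factors, the appetite peptide gene Ghrl was positive at 0.56, the transcription factor Neurod1 negative at -0.51, and Pdx1, a factor of beta cells and the early pancreas, did not pass at -0.20. Among the granule proteins, the prohormone carboxypeptidase Cpe was negative at -2.41 ± 0.20 (SD, n = 3; limma adjusted p = 6.86e-07), the opposite side to Scg5, and chromogranin B, Chgb, was at -0.02 and did not pass. Scg2 was measured on arrays 2 and 3 only, at 0.31 and 0.40, and was not tested.

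Markers of other sources were read for the same arrays. Neurons share granule proteins with islets, and the means of all 4 measured neuron genes lay below 0, with 3 past limma, led by Stmn2 at -1.96, and with Snap25 and Nefm listed at 0. The duct factor Sox9 was at -2.56, with the carbonic anhydrase Car2 listed at 0. The iron exporter Slc40a1 was the 1 splenic macrophage gene measured on all 3 arrays (4.24), with Vcam1 listed at 0. C1qa (1.32) and Cd68 (-0.07) were measured on array 3 only and were not tested. Wt1, of the adipose and mesothelium list, and the matrix gene Sparc were also listed at 0. Stomach genes passed as positive for 4 of 8 and as negative for 1, between -0.67 and 1.95. Of these Tff1 was positive (0.56) through probe 7065 at 2.99 alone. Its probes 10310 (-0.38) and 7074 (-0.42) were negative past limma, and probe 16487 (0.05) did not pass. All 3 liver genes were positive, between 0.37 and 2.36. The part of any of these tissues in the member values was not tested.

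**Figure D3:**
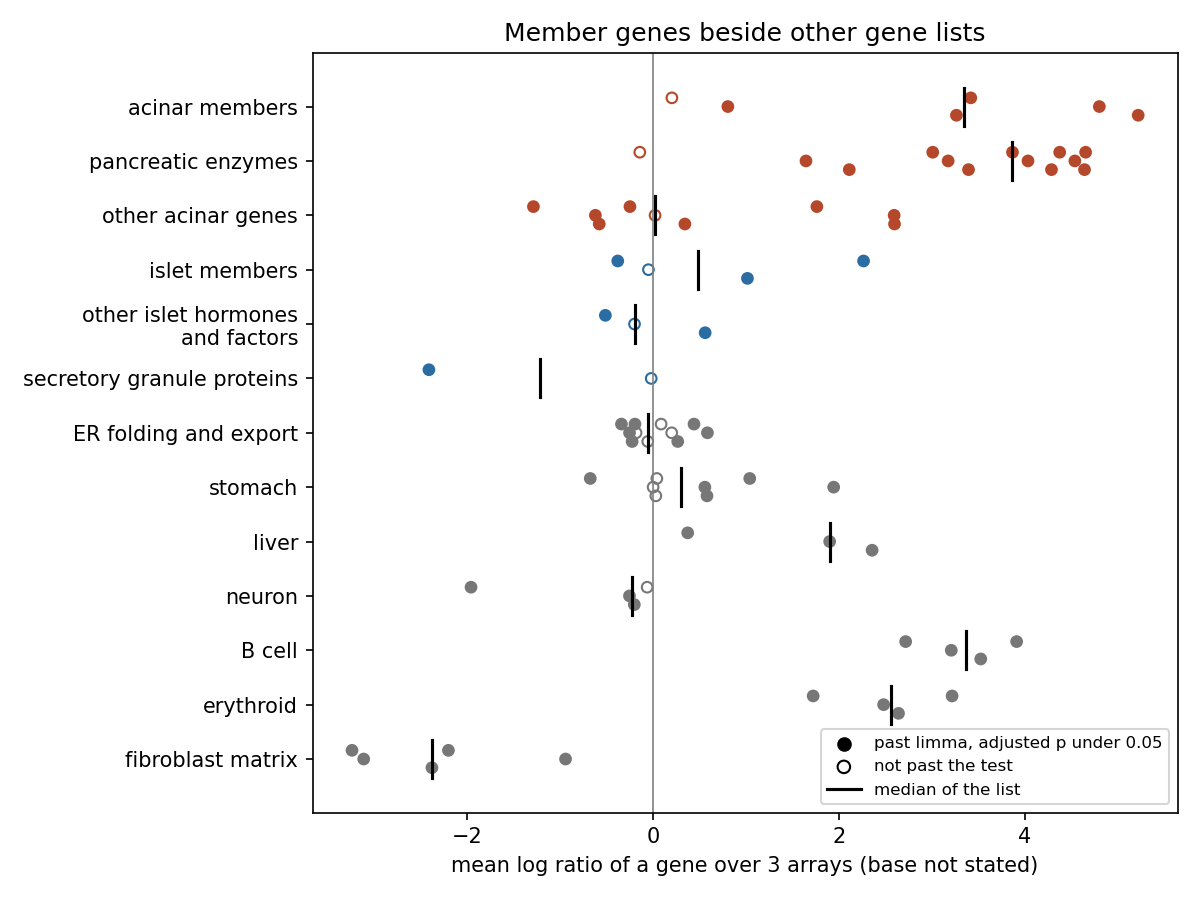
Mean log ratio over 3 arrays (x axis, base not stated) of every measured gene of 13 lists (y axis), filled where limma's adjusted p was under 0.05 and open otherwise, with a black bar at the median of each list. The acinar members (median 3.34) sit with the pancreatic enzymes (3.87), and the islet members (0.48) are spread around a lower median. The genes listed for endoplasmic reticulum folding lie close to 0.

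Genes whose 3 values were most like the acinar median profile of 3.59, 3.38 and 3.06 were Acp5, with a mean absolute difference of 0.073, Cela1 (0.150), Slc6a4 (0.163), Tnfrsf13c (0.165) and Frzb (0.179). The likeness rests on 3 arrays of 1 group and mostly says that these ratios have the same size.

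The arrays did not deviate evenly among the members. Array 3 gave the lowest value for 11 of the 18 probes, array 1 for 4 and array 2 for 3. Among members with a mean of 2 or more it was lowest for 9 of 12 probes, beside 47.8% of all 312 probes of that size and 28.7% of all probes. The deviation from the probe's mean on array 3 reached from -0.52 (Reg3a probe 2439) to 0.12, with a median of -0.16 for acinar and -0.07 for islet probes. The median SD over arrays was 0.15 for the member probes and 0.12 for all probes, small beside the ratios of the 4 high acinar genes and of Scg5 and comparable to those of Pcsk1n and the lower Erp27 probe.

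**Figure D4:**
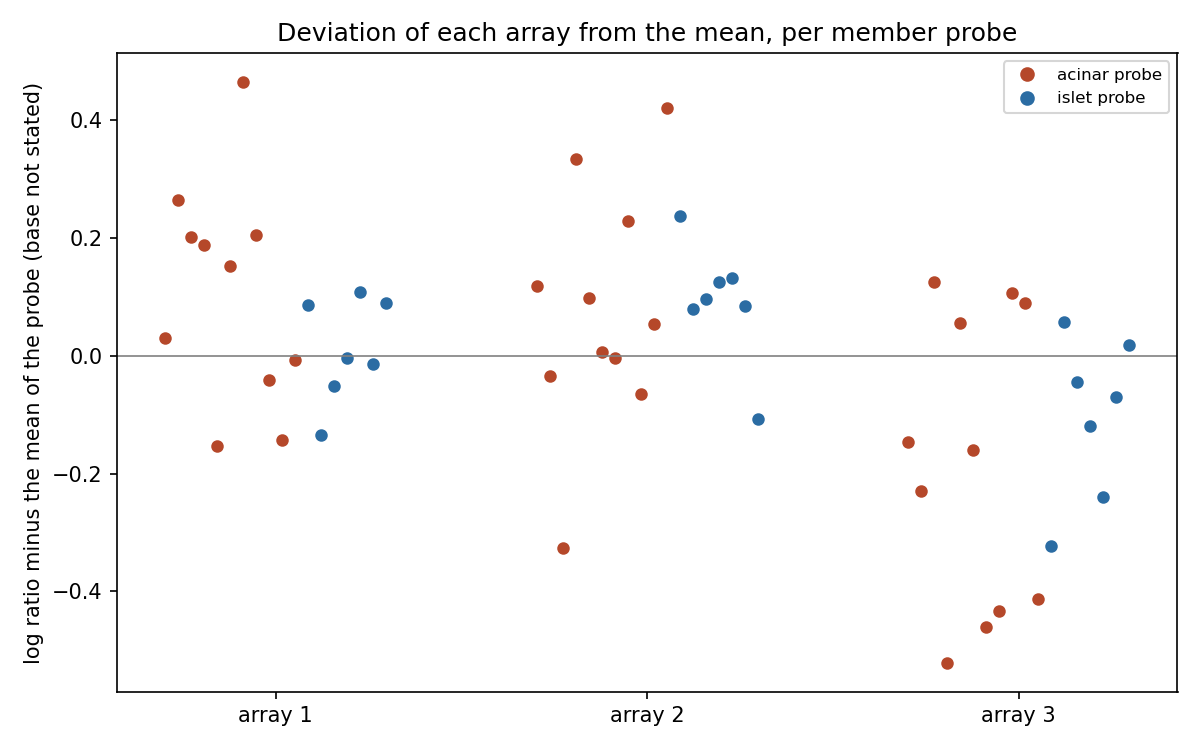
Log ratio minus the mean of the probe (y axis, base not stated) on each of the 3 arrays (x axis) for the 11 acinar (red) and 7 islet (blue) probes, spread sideways in the same order on each array. On array 3, 12 of the 18 probes lie below their mean, down to -0.52.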

How the data were processed

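Spleen and reference cRNA were hybridised together on 3 arrays. The authors deposited 1 table of signed log ratios, for which array type, background correction, normalization and centring, like the log base and the numerator, are not stated in the labels, and the planned log2 reading could not be checked. Exact 0 was read as no measurement. Probes were named through the platform's annotation, and all 10 gene IDs were found in RefSeq (GRCm38.p6) with 0 symbols changed. All 11086 probes measured on 3 arrays were fitted with limma 3.58.1 in R 4.3.3 (intercept, moderated variance, two-sided, Benjamini-Hochberg over all probes, adjusted p under 0.05), and 6077 genes likewise after averaging probes. The code was tested on simulated data. The members and the 15 other gene lists were chosen with earlier results of these data known. The naming rule took all members, up to 4 genes per list with the largest absolute mean, list genes at 0 on all arrays, and the 5 genes most like the acinar profile. For the stomach, liver, B cell, T cell, erythroid and matrix lists, counts and ranges stand in place of the genes with the largest means. Reg4, Spink1, Gata6, Nupr1, Gatm, Cel, Cd3d, Col3a1, Col14a1, Tff1, Try4, C1qa and Cd68 lie outside that rule and were named after their values were seen. Alternatives were centring, scaling, quantile normalization, other moderation and thresholds, other readings of 0, subtracted running medians, gene averages and leaving out each array. Plots used matplotlib 3.10.9 (Python 3.11.15).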

Additional observations from a re-analysis of the deposited data

How the results depend on the processing

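Of the 18 member probes, 13 kept direction and call under all 16 alternatives run per probe, and the 5 others are Ins2, Gcg, Ptf1a, Pcsk1n and Erp27 probe 16449. The 15 positive calls were 13 to 16 elsewhere, and 7 with probes averaged into genes, where 10 genes and not 18 probes are counted. The 1 negative call became 0 without moderation of the variance and 0 against a 1.5-fold ratio in log2 or natural logs. It became 3, 2 and 2 with running medians over 5, 10 and 20 probe numbers subtracted, where Erp27 probe 16449 turned to -0.53 with 5 and to -0.088 with 20. That subtraction takes out real ratios as well as any trend along the probe numbers. The acinar minus islet difference of 2.86 was 2.64, 2.66 and 2.67 with those 3 windows, 3.26 with each gene's largest probe and 3.39 without Scg5. The window of 10, the largest probe and the set without Scg5 were chosen after seeing the data. Leaving out each array gave 14 to 15 positive calls, 1 negative call and differences of 2.78 to 2.92. Calls without array 3 rest on limma adjusted p of another order, 1.48e-43 for Reg2, and are not comparable with the others. The cause of these changes was not tested. No paired analysis was possible because the 3 arrays form 1 group and no other group shares their numbers, while each array already sets spleen against the reference. Signal over background is unknown.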
